A study of Mus musculus with 10 samples.

Results

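The mitochondrial carrier family of brown adipose tissue (BAT), the SLC25 family, was examined in control and Stat5Adipoq mice. Members were taken by symbol: every gene of the authors' comparison table whose symbol starts with Slc25a and a digit, joined by Entrez gene identifier to the count of each library. This gave 42 members among 13568 tested genes, from 24454 genes in the count files. Another 5 SLC25 genes, Slc25a2, Slc25a21, Slc25a41, Slc25a43 and Slc25a54, were counted but fell below the filter on low counts, with at most 6 counts in any library, so no genotype difference is given for them. RNA-Seq was performed on BAT of 5 control and 5 Stat5Adipoq mice, with 1 library per mouse. In Stat5Adipoq mice Stat5a and Stat5b were deleted in adipocytes by Cre recombinase under the Adipoq promoter, so other cells of the depot kept both genes. Controls were Stat5 floxed littermates without the Cre transgene according to the methods, and the sample labels call them wild type. All mice were males of the C57BL/6N strain aged 2 months, fed ad libitum and sampled in the basal state, with no cold exposure or agonist.

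SLC25 proteins carry metabolites across the inner mitochondrial membrane, mostly by exchanging a solute of the matrix for another of the cytosol. They are encoded in the nucleus, made in the cytosol and inserted into the inner membrane through the TIM22 complex. Between them they admit ADP, phosphate, acylcarnitines, amino acids, iron and cofactors and release ATP and citrate, so they link fatty acid oxidation, the TCA cycle and lipid synthesis between compartments. The uncoupling proteins belong to the same family by sequence but were named before the SLC25 numbers were given. In brown adipocytes UCP1 lets protons return to the matrix without ATP synthesis and so releases heat.

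The 10 libraries held 8488129 to 19514904 counts on genes, and values are given as CPM, counts divided by the library size after TMM scaling. Stat5a mRNA was 86.9 to 130.4 CPM in controls and 15.8 to 20.7 CPM in Stat5Adipoq BAT, and Stat5b mRNA was 76.6 to 91.9 CPM and 21.0 to 22.9 CPM (log2 fold changes -2.62 and -1.94, adjusted p = 2e-07 and 3.9e-09 from edgeR's quasi-likelihood test). All 10 listed adipocyte markers were detected, among them Ucp1 with a mean of 9004 CPM in controls. RNA of skeletal muscle was unequal among the libraries: 12 muscle markers summed to 4015 CPM in control replicate 3 and 324 CPM in control replicate 5, at most 64.2 CPM in the other controls and 2.63 to 46.1 CPM in Stat5Adipoq libraries. Control replicate 3 also held 99.1 CPM of 10 liver markers, which summed to no more than 2.68 CPM in any other control. The part of this RNA in the differences below was not tested, and values without control replicate 3 or with a muscle score as a covariate are given beside several of them. In whole tissue, fewer cells of a type and less RNA per cell cannot be told apart.

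In control BAT the family was dominated by a few carriers of lipid and energy metabolism. Slc25a1, which exports citrate for the supply of cytosolic acetyl-CoA, was the highest member, followed by Slc25a20, the acylcarnitine carrier that admits fatty acids for β-oxidation. Then came Slc25a39, which is needed for mitochondrial glutathione, Slc25a4, an ADP/ATP carrier, and Slc25a3, the phosphate carrier. To compare genes, CPM were divided by the length of all annotated exons of a gene in kilobases, which was known for 42 of 42 members. On this scale Slc25a1 was 703.5 ± 59.4 CPM per kilobase (SD, n = 5), Slc25a20 412 ± 61.8 and Slc25a39 291 ± 29.7. Slc25a4 was 227 ± 31.2 CPM per kilobase (SD, n = 5) and Slc25a3 196 ± 6.99. Slc25a1 exceeded Slc25a20, Slc25a20 exceeded Slc25a39 and Slc25a39 exceeded Slc25a4 within 5 of 5 control libraries, although the ranges of Slc25a39 and Slc25a4 over libraries overlapped. With the length of the longest transcript in place of all exons, Slc25a3 rose to 237 CPM per kilobase and stood above Slc25a4, so the order of these carriers depends on the transcript model.

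Lower levels were found for Slc25a5, the second ADP/ATP carrier, at 177 CPM per kilobase, Slc25a51, the carrier of NAD, at 148, Slc25a11, the exchanger of 2-oxoglutarate and malate, at 136 and Slc25a42, a carrier of coenzyme A, at 105. The Slc25a5 transcript shares 46.6% of its 50-base words with 9 other genes, and that of Slc25a4 shares 0%. With reads of 50 bases, the level of Slc25a5 and its order against Slc25a4 are therefore uncertain. In all, 10 members lay above 100 CPM per kilobase and held 81.6% of the summed level of the family. Another 12 members lay between 10 and 100, 15 between 1 and 10 and 5 below 1 CPM per kilobase. The lowest were Slc25a13, the aspartate/glutamate carrier citrin, at 0.138, Slc25a31, a germ cell ADP/ATP carrier, at 0.218, and Slc25a18, a glutamate carrier, at 0.246. From the highest to the lowest member the level differed 5091-fold. The median member was at 15.8 CPM per kilobase, against 5.55 over the 13088 tested genes with a length, and 27 of 42 members were above the latter. Ucp1 was at 5504 CPM per kilobase, which was 7.82 times Slc25a1 and 1.74 times the sum of all 42 members. Ucp3 was at 114.6 and Ucp2 at 14.1 CPM per kilobase.

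**Figure D1:**
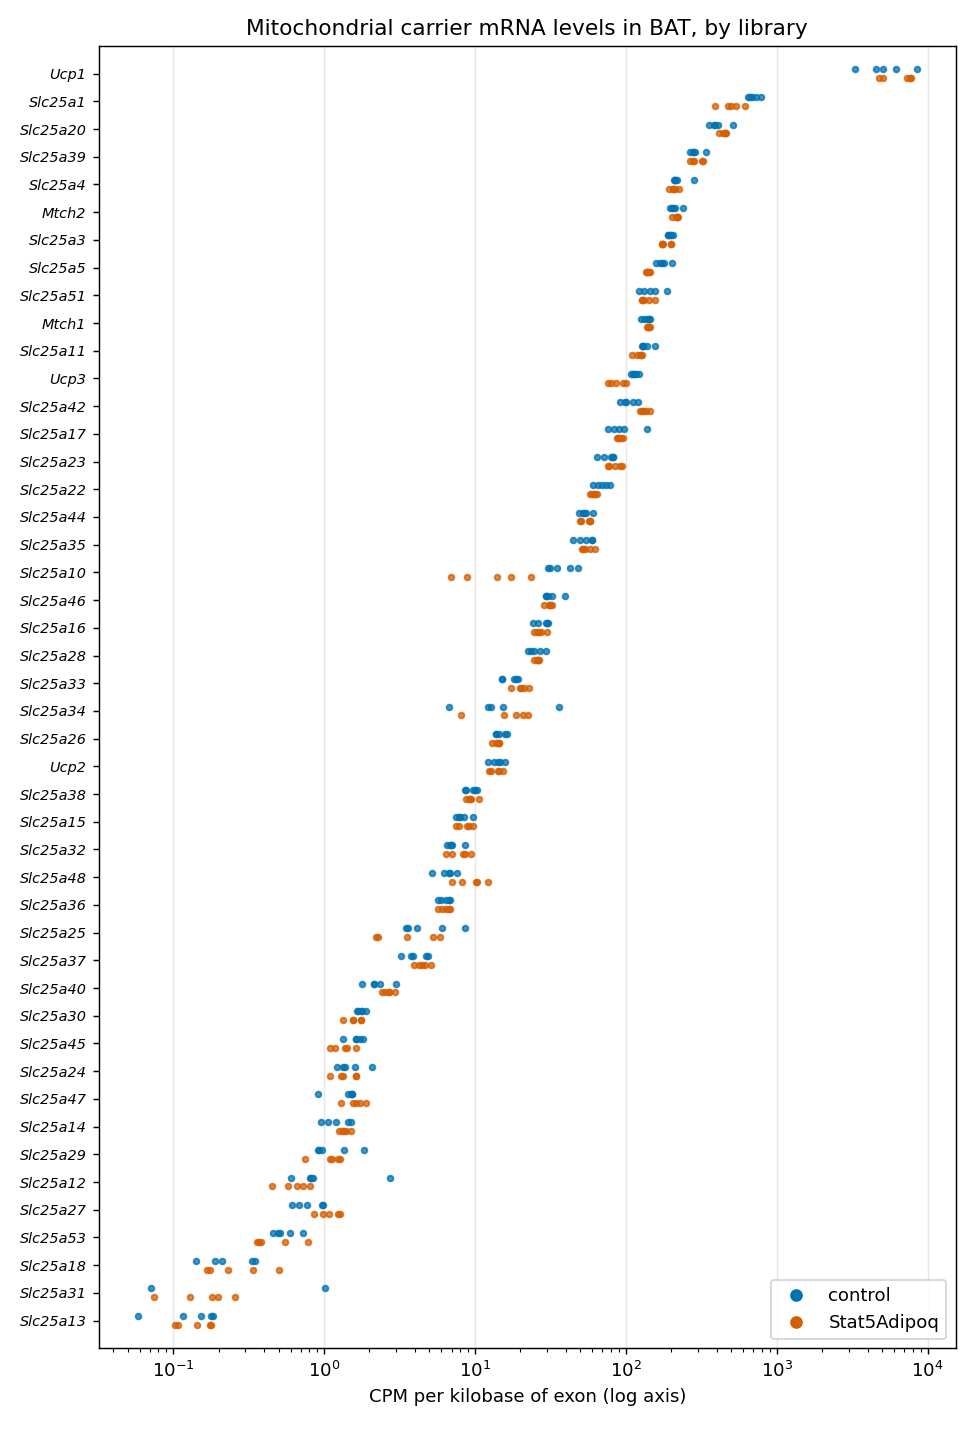
mRNA level in CPM per kilobase of exon, on a log axis, for the SLC25 members reported here, Ucp1, Ucp2, Ucp3, Mtch1 and Mtch2 in the 5 control (blue) and 5 Stat5Adipoq (orange) libraries. Each point is a library, genes are ordered by their control mean, and the 3 control libraries with 0 counts of Slc25a31 are not drawn. Slc25a10 is the member whose genotypes stand farthest apart, and single points to the right of their group include control replicate 3 for Slc25a4, Slc25a12 and Slc25a31.

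Loss of adipocyte STAT5 went with a change in few carriers. In the edgeR fit over all tested genes, with p-values adjusted by the Benjamini-Hochberg method, Slc25a10, Slc25a1 and Slc25a5 fell and Slc25a42 rose, and the other 38 members did not pass the threshold of 0.05. These 4 of 42 members are 9.52% of the family, whereas 2.71% of all tested genes were called, 1.31% as lower and 1.4% as higher. The same 4 members were those whose 5 control libraries did not overlap with the 5 Stat5Adipoq libraries, a pattern seen in 4.39% of all tested genes. Before adjustment, 9 members had a p-value below 0.05, 21.4% of the family and 15.2% of all tested genes. DESeq2 called 5 members, adding Slc25a48, and 4.86% of all tested genes. The median log2 fold change was -0.01 over the members and -0.0028 over all tested genes, and 22 members lay below 0 and 20 above. Without control replicate 3 the median over the members was 0.03, with 17 members below 0 and 25 above. For 22 members the genotype with the higher level in the edgeR fit exceeded the other by less than 10%. For 25 members the 95% confidence limits lay within a log2 change of 0.5 in either direction. The summed CPM of the family was 6845 ± 438 in controls and 6484 ± 253 in Stat5Adipoq BAT (SD, n = 5 each), and the ranges overlapped. Control replicate 3 had the highest sum, 7588 CPM, and the other 4 controls had a mean of 6660 ± 160 CPM (SD, n = 4), so the difference of -361 CPM between the genotypes was -175 CPM without that library.

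**Figure D2:**
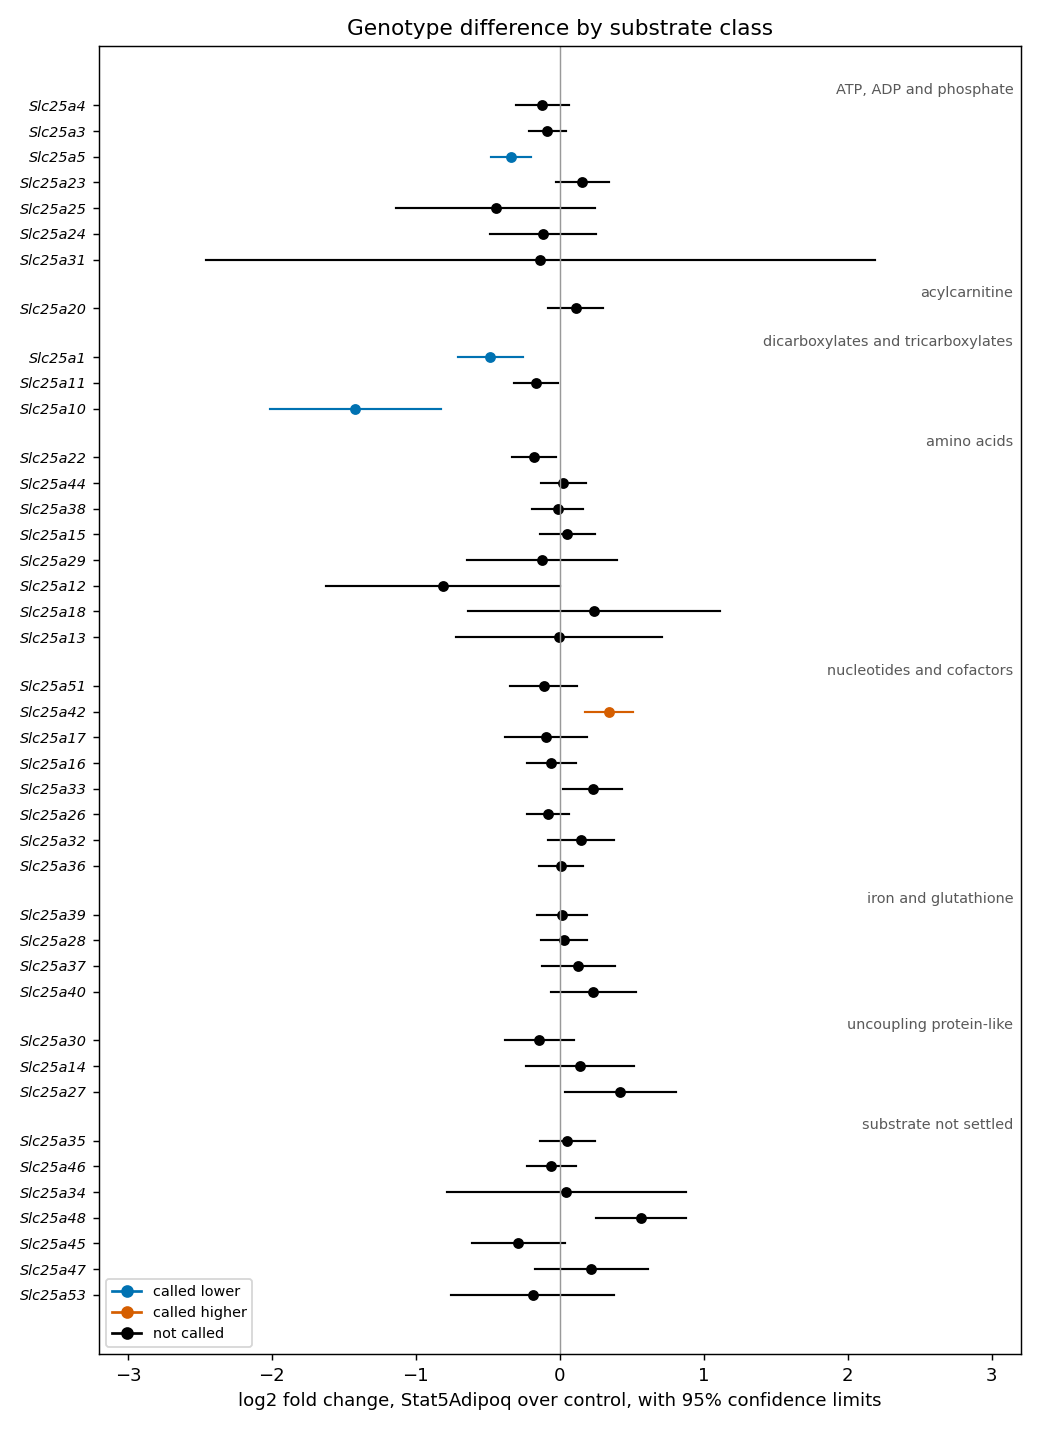
log2 fold change of each SLC25 member reported here, Stat5Adipoq over control, with 95% confidence limits from edgeR, by substrate class and, within a class, by falling level per kilobase in controls. The 3 members called lower (blue) are Slc25a5, Slc25a1 and Slc25a10, the member called higher (orange) is Slc25a42, and the limits are widest for Slc25a31, which had 0 to 18 counts per library.

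The carriers of dicarboxylates and tricarboxylates differed most by class, with a median log2 fold change of -0.48. These exchange intermediates of the TCA cycle with the cytosol and supply citrate, malate and 2-oxoglutarate for lipid synthesis and for redox shuttles. Of the 3 tested members 2 fell, and the third, Slc25a11, lay below 0 without passing the test. Their summed level was 1481 ± 97.2 CPM in controls and 1075 ± 126 CPM in Stat5Adipoq BAT (SD, n = 5 each), with no overlap between 1362 to 1626 CPM and 921 to 1258 CPM. Their part of the summed CPM of the family was 21.6% in controls and 16.6% in Stat5Adipoq BAT. Most of the sum was Slc25a1, with a mean of 1172 CPM in controls and 839 CPM in Stat5Adipoq BAT, and the class median is its value. The sum, its lack of overlap and this part of the family therefore largely repeat Slc25a1.

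Slc25a10 is the dicarboxylate carrier, which moves malate and succinate against phosphate. The gene lies at chr11:120491837-120501161 of GRCm38. Its mRNA was 96.9, 62.2, 64.0, 71.1 and 86.4 CPM in control replicates 1 to 5 and 47.3, 17.9, 35.1, 28.5 and 14.1 CPM in Stat5Adipoq replicates 1 to 5. The lowest control stood above the highest Stat5Adipoq library, and among the Stat5Adipoq libraries replicate 1 was the highest and replicate 5 the lowest. The mean fell from 76.1 ± 15.0 to 28.6 ± 13.4 CPM (SD, n = 5 each), by 62.6%, a log2 fold change of -1.42 (SE 0.27, 95% limits -2.01 to -0.82, adjusted p = 0.018 from edgeR). The exact two-sided permutation test gave an unadjusted p = 0.0079, the smallest that 5 libraries against 5 allow. Every gene whose genotypes do not overlap has this value, so it adds nothing to the lack of overlap, here and for the genes below. Without Stat5Adipoq replicate 4 the adjusted p-value was 0.051 with the same log2 fold change of -1.42. Exons of another gene on the opposite strand cover 11.3% of its exons, and the strand setting of the counting is not given in the sources used here.

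Slc25a1, the citrate carrier, lies at chr16:17925211-17928219. Its mRNA was 1136, 1224, 1109, 1073 and 1318 CPM in control replicates 1 to 5 and 653, 790.4, 831, 1027 and 896 CPM in Stat5Adipoq replicates 1 to 5. All 5 Stat5Adipoq libraries lay below all 5 controls, but Stat5Adipoq replicate 4 came close to control replicate 4. The mean fell from 1172 ± 98.9 to 839 ± 137 CPM (SD, n = 5 each), by 28.4%, a log2 fold change of -0.48 (SE 0.11, 95% limits -0.71 to -0.25, adjusted p = 0.031 from edgeR, exact permutation p = 0.0079). The adjusted p-value rose to 0.061, 0.078 and 0.064 without control replicate 1, 2 or 5 and to 0.077, 0.087 and 0.067 without Stat5Adipoq replicate 2, 3 or 5, with log2 fold changes between -0.56 and -0.40 over all 10 omissions. Without control replicate 3 it was 0.030, and with the muscle score as a covariate it was 0.076 at an unchanged log2 fold change of -0.48.

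Slc25a11, which exchanges 2-oxoglutarate for malate in the malate-aspartate shuttle, was 218 to 267 CPM in controls and 187 to 220.3 CPM in Stat5Adipoq BAT, with overlapping groups. Its log2 fold change of -0.16 had 95% limits from -0.32 to -0.01 and an adjusted p-value of 0.28 in edgeR. The highest control was replicate 3, and the log2 fold change was -0.11 without it and -0.08 with the muscle score as a covariate. Within libraries, the ratio of Slc25a10 to Slc25a11 counts was 0.239 to 0.412 in controls and 0.0654 to 0.215 in Stat5Adipoq BAT, without overlap. Slc25a10 alone already separated the genotypes, so this ratio is no further support. The ratio of Slc25a1 to Slc25a20, citrate export against acylcarnitine entry, was 1.63 ± 0.32 in controls and 1.06 ± 0.17 in Stat5Adipoq BAT (SD, n = 5 each), and here the ranges overlapped.

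**Figure D3:**
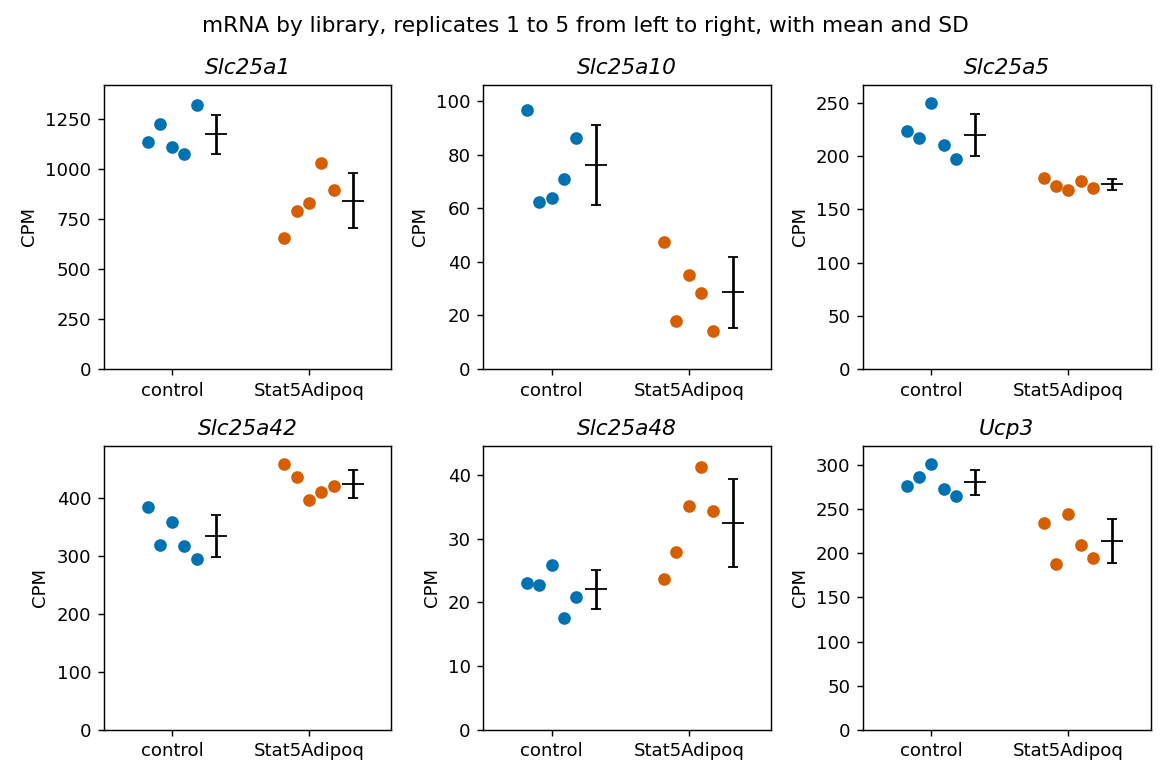
CPM of Slc25a1, Slc25a10, Slc25a5, Slc25a42, Slc25a48 and Ucp3 in the 5 control (blue) and 5 Stat5Adipoq (orange) libraries, replicates 1 to 5 from left to right, with the mean and SD in black and axes from 0. The genotypes do not overlap for any of these genes except Slc25a48, in which Stat5Adipoq replicate 1, at 23.6 CPM, lies within the controls.

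The promoters of the 4 called carriers are shown because these members changed with the loss of a transcription factor. Each is the 250 bases before the annotated start in RefSeq (GRCm38.p6), 5′ to 3′ on the strand of the gene, in lower case. Capitals mark a CACGTG or CCAAT match on either strand. CACGTG is the E-box bound by factors such as USF and SREBP-1, and CCAAT is the box bound by NF-Y.
Slc25a10, chr11:120491587-120491836, plus strand: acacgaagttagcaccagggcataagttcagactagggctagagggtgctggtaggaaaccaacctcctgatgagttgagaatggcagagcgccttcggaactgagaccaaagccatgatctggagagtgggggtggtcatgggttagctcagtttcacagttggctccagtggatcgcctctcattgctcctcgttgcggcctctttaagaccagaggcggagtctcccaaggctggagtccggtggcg
Slc25a1, chr16:17928220-17928469, minus strand: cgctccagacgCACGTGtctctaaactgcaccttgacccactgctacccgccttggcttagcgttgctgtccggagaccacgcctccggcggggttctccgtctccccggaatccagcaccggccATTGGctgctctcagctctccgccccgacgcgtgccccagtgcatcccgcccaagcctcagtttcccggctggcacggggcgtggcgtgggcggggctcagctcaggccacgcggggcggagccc
Slc25a5, chrX:36795347-36795596, plus strand: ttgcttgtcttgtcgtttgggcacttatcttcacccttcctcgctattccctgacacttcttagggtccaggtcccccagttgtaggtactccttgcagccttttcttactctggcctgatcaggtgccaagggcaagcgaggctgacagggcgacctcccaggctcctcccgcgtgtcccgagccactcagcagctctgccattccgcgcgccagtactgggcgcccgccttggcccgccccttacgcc
Slc25a42, chr8:70212282-70212531, minus strand: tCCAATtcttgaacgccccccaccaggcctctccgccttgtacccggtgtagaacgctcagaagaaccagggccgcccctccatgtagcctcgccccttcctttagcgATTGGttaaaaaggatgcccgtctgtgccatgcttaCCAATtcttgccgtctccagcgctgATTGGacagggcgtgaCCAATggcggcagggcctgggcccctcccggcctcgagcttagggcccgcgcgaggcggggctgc

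A promoter was available for 33 of 42 members, 42 promoters in all. The palindrome TTCNNNGAA, the core bound by STAT5, was searched on both strands and occurred in 1 promoter, that of Slc25a36, which is 2.38% of the members' promoters against 7.02% of all 32851 promoters. None of the 4 printed promoters holds it, which says only that these letters are not in these windows. CACGTG occurred in 8 promoters of 7 members, Slc25a1 among them, or 19% against 6.02% of all promoters. CCAAT occurred in 20 promoters of 17 members, or 47.6% against 33.8% of all promoters. The promoter of Slc25a42 had 5 CCAAT matches, a number reached by 0.213% of all promoters. Those of Slc25a10 and Slc25a5 held none of these motifs. A match is a sequence description and not evidence of binding.

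Among the 7 tested carriers of ATP, ADP and phosphate, which provide ATP synthase with its substrates and set the adenine nucleotide pool of the matrix, Slc25a5 fell and the other 6 did not pass the test. The median log2 fold change was -0.12, and -0.03 without control replicate 3. Slc25a5 encodes adenine nucleotide translocator 2, which exchanges matrix ATP for cytosolic ADP, and lies at chrX:36795597-36798808. Its mRNA was 224, 217, 250.3, 210.4 and 197 CPM in control replicates 1 to 5 and 179.8, 172, 168, 177 and 170.5 CPM in Stat5Adipoq replicates 1 to 5. The Stat5Adipoq libraries lay close together, all below the controls. The mean fell from 219.7 ± 19.7 to 174 ± 4.82 CPM (SD, n = 5 each), by 21.0%, a log2 fold change of -0.34 (SE 0.063, 95% limits -0.48 to -0.20, adjusted p = 0.015 from edgeR, exact permutation p = 0.0079). It was called in each of the 10 fits that left out 1 library, and with the muscle score as a covariate the log2 fold change was -0.28 with an adjusted p-value of 0.056. Its transcript shares 46.6% of its 50-base words with 9 other genes, pseudogenes such as Slc25a5-ps among them, so 50-base reads from these stretches match more than 1 gene. Whether such reads were counted or left out is not given in the sources used here.

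Slc25a4, adenine nucleotide translocator 1 and the form typical of heart and skeletal muscle, was 407, 411, 543, 402 and 418 CPM in control replicates 1 to 5 and 434, 409, 395, 371 and 394 CPM in Stat5Adipoq replicates 1 to 5. Control replicate 3, the library with the most muscle RNA, stood above the rest, and the genotypes overlapped. The log2 fold change was -0.12 (95% limits -0.31 to 0.06, adjusted p = 0.55 from edgeR) and -0.03 without control replicate 3. With the muscle score as a covariate it was -0.0017. The count ratio of Slc25a5 to Slc25a4 was 0.507 ± 0.039 in controls and 0.434 ± 0.025 in Stat5Adipoq BAT (SD, n = 5 each), with overlapping ranges. The size of this ratio is uncertain because of the sequence that Slc25a5 shares with other genes. Slc25a3 was 382, 386, 402, 369.8 and 369 CPM in control replicates 1 to 5 and 341, 340.4, 340.0, 387 and 390.1 CPM in Stat5Adipoq replicates 1 to 5. Of the Stat5Adipoq libraries 3 lay below all controls and 2 lay within them, and the log2 fold change was -0.09 (95% limits -0.21 to 0.04, adjusted p = 0.55 from edgeR).

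The ATP-Mg/phosphate carriers, which are regulated by calcium, did not pass the test either. Slc25a23 was 217 to 277 CPM in controls and 256 to 319 CPM in Stat5Adipoq BAT (log2 fold change 0.16, adjusted p = 0.43 from edgeR, and 0.10 without control replicate 3). Slc25a25 ranged from 14.3 to 35.6 CPM in controls and from 9.05 to 24.2 CPM in Stat5Adipoq BAT, a coefficient of variation of 42.3% in controls, and its log2 fold change of -0.44 had limits from -1.14 to 0.25 and was -0.70 with the muscle score as a covariate. Slc25a24 had means of 5.22 and 4.80 CPM in controls and Stat5Adipoq BAT. Slc25a31 had 0 counts in 3 control libraries and 18 in control replicate 3, and with a mean of 4.2 counts per library no difference of its level could be measured at this depth.

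Of the 9 carriers of nucleotides and cofactors Slc25a42 rose and 8 did not pass the test. The median log2 fold change of the class was 0.01, and 0.07 without control replicate 3. Slc25a42 exchanges coenzyme A and adenine nucleotides and so bears on the coenzyme A pool of the matrix. The gene lies at chr8:70184340-70212281. Its mRNA was 385, 319, 359, 317 and 294 CPM in control replicates 1 to 5 and 459, 437, 396, 410.0 and 420.5 CPM in Stat5Adipoq replicates 1 to 5. The groups did not overlap, but control replicate 1 lay only a little below Stat5Adipoq replicate 3. The mean rose from 335 ± 36.4 to 425 ± 24.5 CPM (SD, n = 5 each), by 26.8%, a log2 fold change of 0.34 (SE 0.076, 95% limits 0.18 to 0.51, adjusted p = 0.033 from edgeR, exact permutation p = 0.0079). This call was kept under all 8 other tests, scalings, filters and covariates, but among the fits with 1 library less it was kept only without control replicate 1 or 3. Without control replicate 2, 4 or 5 the adjusted p-value was 0.088, 0.080 and 0.060, and without Stat5Adipoq replicate 1, 2, 3, 4 or 5 it was 0.069, 0.073, 0.057, 0.071 and 0.081, at log2 fold changes between 0.30 and 0.40.

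The other carrier linked to coenzyme A in mitochondria, Slc25a16, was 76.6 to 95.3 CPM in controls and 77.1 to 95.2 CPM in Stat5Adipoq BAT, with a log2 fold change of -0.06 and 95% limits from -0.23 to 0.11. The count ratio of Slc25a42 to Slc25a16 was accordingly 3.37 to 4.14 in controls and 4.83 to 5.32 in Stat5Adipoq BAT, without overlap. Slc25a42 alone already separated the genotypes, so this ratio is no further support. Slc25a17, a cofactor carrier of peroxisomes, was 131 to 238 CPM in controls and 151 to 166 CPM in Stat5Adipoq BAT, and the highest control was replicate 3. Its log2 fold change was -0.09, and 0.07 without that library. Slc25a51 was 539 to 836 CPM in controls and 569 to 689.7 CPM in Stat5Adipoq BAT (log2 fold change -0.11, adjusted p = 0.71 from edgeR). The highest control was again replicate 3, and without it the log2 fold change was -0.01. Slc25a33, a pyrimidine nucleotide carrier, had an unadjusted p-value of 0.030 and a log2 fold change of 0.23, which after adjustment in edgeR stood at 0.27. Slc25a26, Slc25a32 and Slc25a36, carriers of S-adenosylmethionine, folate or FAD, and pyrimidine nucleotides, had log2 fold changes of -0.08, 0.15 and 0.01.

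Slc25a20, the carnitine/acylcarnitine carrier, did not pass the test. Its mRNA was 728, 701, 922, 690.0 and 634 CPM in control replicates 1 to 5 and 807, 787, 734, 810.2 and 824 CPM in Stat5Adipoq replicates 1 to 5. Control replicate 3 was the highest of all libraries, while the other 4 controls lay below the 5 Stat5Adipoq libraries. The log2 fold change was 0.11 (SE 0.088, 95% limits -0.08 to 0.30, adjusted p = 0.63 from edgeR), and 0.20 with an adjusted p-value of 0.082 without control replicate 3.

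No member of the 8 amino acid carriers passed the test, with a median log2 fold change of -0.01. Slc25a44, which admits branched-chain amino acids to mitochondria, was 188, 194, 217, 176 and 187 CPM in control replicates 1 to 5 and 177, 180.1, 209, 204 and 208 CPM in Stat5Adipoq replicates 1 to 5. The groups overlapped throughout, and the log2 fold change was 0.03 (95% limits -0.13 to 0.18, adjusted p = 0.92 from edgeR) and -0.01 without control replicate 4. Slc25a22, the main glutamate carrier here, was 175 to 226 CPM in controls and 167 to 187 CPM in Stat5Adipoq BAT, with a log2 fold change of -0.18, an unadjusted p-value of 0.024 and an adjusted p-value of 0.24 in edgeR. Slc25a12, the aspartate/glutamate carrier aralar of excitable tissues, was 17.3 CPM in control replicate 3 and 3.83 to 5.35 CPM in the other controls, against 2.88 to 5.11 CPM in Stat5Adipoq BAT. Its log2 fold change of -0.81 (adjusted p = 0.33 from edgeR) was -0.26 without that library. Slc25a38, the glycine carrier used in haem synthesis, and Slc25a15, the ornithine carrier, had log2 fold changes of -0.02 and 0.05. Slc25a13 and Slc25a18 had at most 15 counts per library, and their limits spanned more than a log2 change of 0.5 on both sides.

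The 4 carriers of iron and glutathione were likewise not called. Slc25a39 was 469.9, 473, 577, 485 and 448 CPM in control replicates 1 to 5 and 471, 448, 475, 548 and 540.0 CPM in Stat5Adipoq replicates 1 to 5. The genotypes overlapped, and the log2 fold change was 0.02 (95% limits -0.16 to 0.19, adjusted p = 0.96 from edgeR) and fell below 0 under scaling by library size alone and in 3 of the fits with 1 library less. Slc25a28 and Slc25a37, the mitoferrins that admit iron, had log2 fold changes of 0.03 and 0.13. Slc25a40, a paralogue of Slc25a39, had means of 6.36 CPM in controls and 7.41 CPM in Stat5Adipoq BAT, with a log2 fold change of 0.23 and an adjusted p-value of 0.47 in edgeR.

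The uncoupling protein-like members Slc25a27, Slc25a14 and Slc25a30 were low, with a summed level of 10.2 to 12.9 CPM in controls and 10.6 to 13.6 CPM in Stat5Adipoq BAT. Slc25a27, also known as UCP4, had a log2 fold change of 0.42 with limits from 0.03 to 0.81, an unadjusted p-value of 0.035 and an adjusted p-value of 0.28 in edgeR.

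Among the 7 members without a settled substrate in the classes used here, none passed edgeR's test and Slc25a48 passed that of DESeq2. Slc25a48 was 23.0, 22.8, 25.9, 17.6 and 20.9 CPM in control replicates 1 to 5 and 23.6, 27.9, 35.1, 41.3 and 34.4 CPM in Stat5Adipoq replicates 1 to 5. Stat5Adipoq replicate 1 lay within the controls and the other 4 lay above them. The means were 22.0 ± 3.04 and 32.5 ± 6.85 CPM (SD, n = 5 each), with a log2 fold change of 0.56 (95% limits 0.25 to 0.88) and adjusted p-values of 0.062 in edgeR and 0.0084 in DESeq2. In edgeR it was 0.040 without control replicate 3 and 0.020 without Stat5Adipoq replicate 1. Slc25a34 was the most variable member after Slc25a12 among those with at least 50 counts, with a coefficient of variation of 68.1% in controls, from 18.1 to 96.9 CPM with the highest value in control replicate 3. Its log2 fold change was 0.05 (adjusted p = 0.98 from edgeR), and 0.52 (adjusted p = 0.40) without that library. Slc25a35 and Slc25a46, the latter a protein of the outer membrane, had log2 fold changes of 0.05 (95% limits -0.14 to 0.25) and -0.06 (-0.23 to 0.12). Slc25a46 was highest in control replicate 3 with 172 CPM, against 129 to 143 CPM in the other controls, and its log2 fold change was 0.02 without that library and 0.03 with the muscle score as a covariate.

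**Figure D4:**
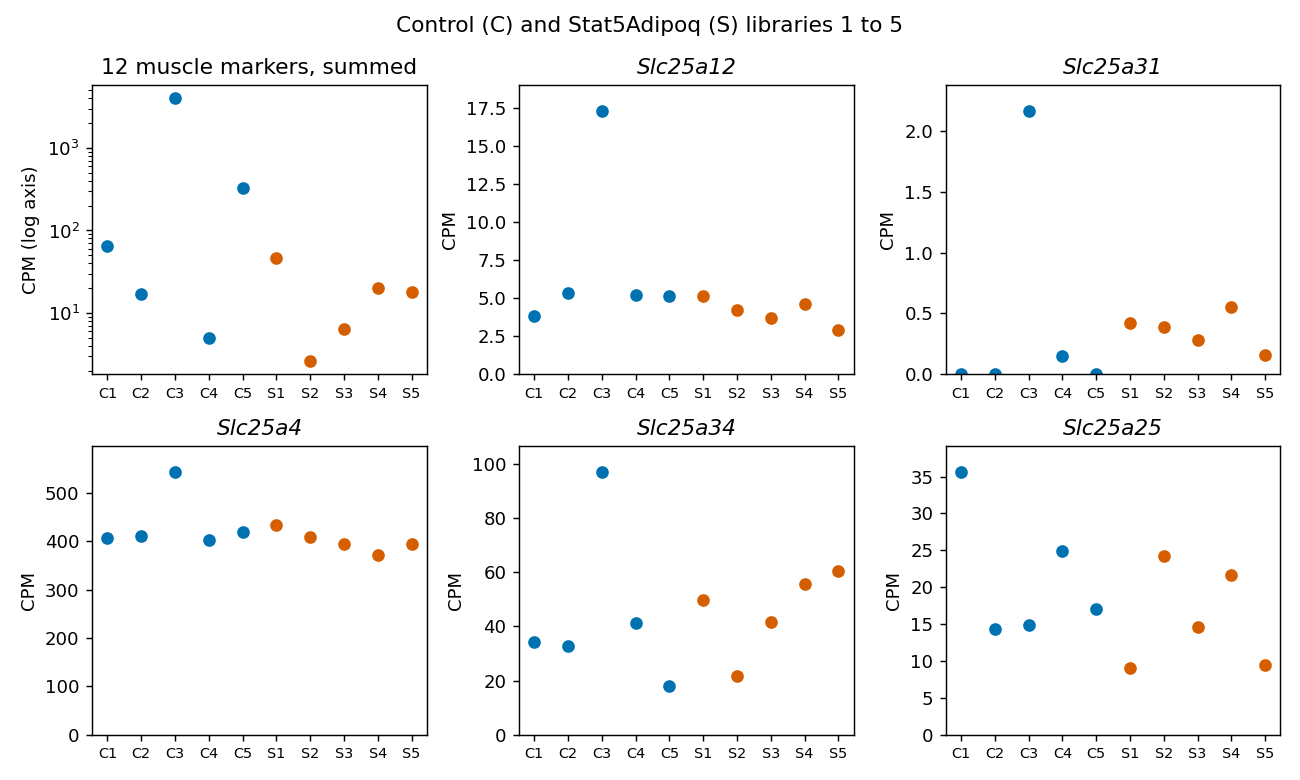
Summed CPM of 12 skeletal muscle markers (log axis) and CPM of Slc25a12, Slc25a31, Slc25a4, Slc25a34 and Slc25a25 in control libraries C1 to C5 (blue) and Stat5Adipoq libraries S1 to S5 (orange). Control replicate 3, with 4015 CPM of muscle markers, is the highest library for each carrier shown except Slc25a25, which is highest in control replicate 1.

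Control replicate 3 was the highest control for 20 of 42 members, whereas it was the highest control for 27.8% of all tested genes. Without this library the log2 fold change turned from below to above 0 for 5 members, Slc25a13, Slc25a17, Slc25a24, Slc25a31 and Slc25a46, none of which passed the test in either fit. In controls the coefficient of variation was 10.9% at the median of the 33 members with a mean of at least 50 counts, and it was 3.56% for Slc25a3. The other 9 members had a mean below 50 counts, 3 of them below 10.

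Of the 5 family members with other names, Ucp3 fell and Ucp1, Ucp2, Mtch1 and Mtch2 did not pass the test. Ucp3, an uncoupling protein of muscle and brown fat whose transported substrate is debated, was 277, 287, 301, 272 and 265 CPM in control replicates 1 to 5 and 234, 188, 244, 209.9 and 195 CPM in Stat5Adipoq replicates 1 to 5. The genotypes did not overlap, and the log2 fold change was -0.39 (SE 0.077, 95% limits -0.56 to -0.22, adjusted p = 0.020 from edgeR, exact permutation p = 0.0079). Its adjusted p-value was 0.055, 0.059 and 0.064 without control replicate 2, Stat5Adipoq replicate 4 or Stat5Adipoq replicate 5, and 0.067 with the muscle score as a covariate.

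Ucp1 was 8245, 7429, 13831, 10111 and 5402 CPM in control replicates 1 to 5 and 8234, 7843, 11866, 12498 and 12660.5 CPM in Stat5Adipoq replicates 1 to 5. The genotypes overlapped, and the spread within each left wide limits on the log2 fold change of 0.24, from -0.25 to 0.72 (adjusted p = 0.69 from edgeR). Without control replicate 3, the highest control, it was 0.45 with an adjusted p-value of 0.27. Ucp2 was 57.2, 48.4, 62.8, 58.9 and 53.2 CPM in control replicates 1 to 5 and 51.1, 57.1, 49.2, 60.8 and 57.3 CPM in Stat5Adipoq replicates 1 to 5. Its log2 fold change of -0.03 had limits from -0.20 to 0.15 and turned to 0.02 without control replicate 3. Mtch1 and Mtch2 are carrier homologues of the outer membrane that insert other proteins there. Mtch1 was 287, 314, 274, 302 and 310.2 CPM in control replicates 1 to 5 and 299.8, 306, 314, 313 and 307 CPM in Stat5Adipoq replicates 1 to 5 (log2 fold change 0.05, 95% limits -0.06 to 0.16). Mtch2 was 553, 529.7, 627, 539 and 513 CPM in control replicates 1 to 5 and 572, 566, 569, 535 and 583 CPM in Stat5Adipoq replicates 1 to 5 (log2 fold change 0.03, 95% limits -0.10 to 0.16). Both sets of libraries overlapped for these 3 genes.

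**Figure D5:**
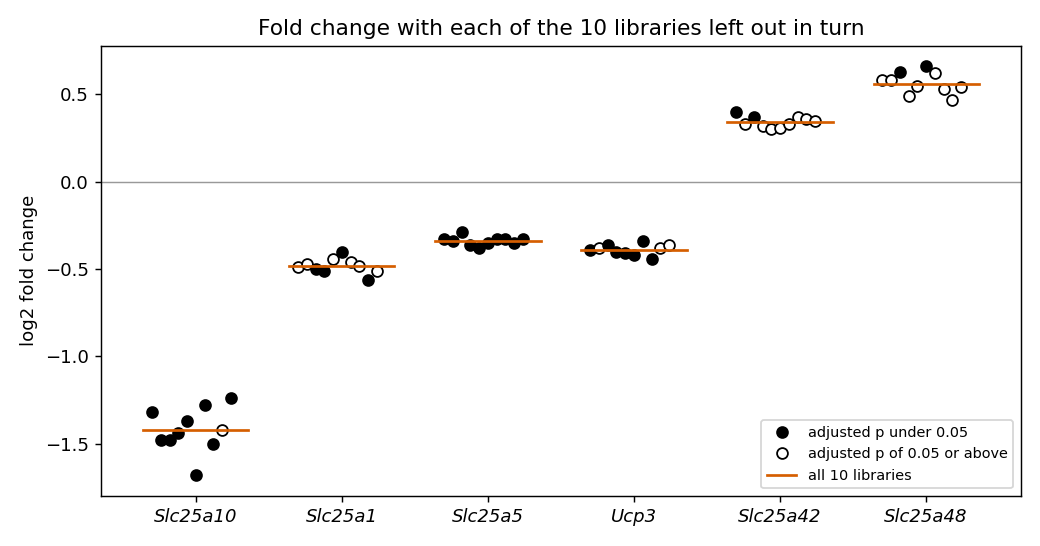
log2 fold change (Stat5Adipoq over control) of Slc25a10, Slc25a1, Slc25a5, Ucp3, Slc25a42 and Slc25a48 in edgeR with all 10 libraries (orange line) and with each library left out in turn (points, control replicates 1 to 5 and then Stat5Adipoq replicates 1 to 5 from left to right). Filled points have an adjusted p-value under 0.05: 10 of 10 for Slc25a5, 9 for Slc25a10, 7 for Ucp3, 4 for Slc25a1 and 2 each for Slc25a42 and Slc25a48, while no point crosses 0.

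Proteins that insert or complement the carriers were listed separately. For the counts below, 15.2% of all tested genes had an unadjusted p-value below 0.05 in edgeR and DESeq2 called 4.86%. Of 13 genes of the TIM22 import pathway none was called by edgeR, 4 had an unadjusted p-value below 0.05 and 1 was called by DESeq2. That gene, Timm22, which encodes the channel of the inner membrane translocase, was 39.3 ± 5.74 CPM in controls and 30.7 ± 1.84 CPM in Stat5Adipoq BAT (SD, n = 5 each). Its libraries did not overlap, and the log2 fold change of -0.35 had adjusted p-values of 0.069 in edgeR and 0.020 in DESeq2. Timm22 was highest in control replicate 3, at 48.2 CPM, and without this library the log2 fold change was -0.27 (adjusted p = 0.073 from edgeR). With the muscle score as a covariate it was also -0.27 (adjusted p = 0.24 from edgeR). Timm10b, Timm13 and Tomm22, the others with an unadjusted p-value below 0.05, had log2 fold changes of -0.21, -0.16 and -0.14, and 10 of the 13 genes lay below 0. Without control replicate 3, Timm8a1, Timm8b and Tomm70a turned above 0, at 0.08, 0.08 and 0.03, and the other genes kept their sign. Of 25 genes of other mitochondrial transport, which included the pyruvate carrier, sideroflexins, voltage-dependent anion channels, ABC transporters, the calcium uniporter and carnitine palmitoyltransferases, again none was called by edgeR, 4 had an unadjusted p-value below 0.05 and 1 was called by DESeq2. It was Micu2, a regulator of the calcium uniporter, with a log2 fold change of 0.24 and adjusted p-values of 0.077 in edgeR, 0.033 in edgeR without control replicate 3 and 0.044 in DESeq2. The partners of Slc25a20 in fatty acid entry, Cpt1a, Cpt1b and Cpt2, had log2 fold changes of -0.17, 0.04 and 0.17 with adjusted p-values of 0.63, 0.93 and 0.22 in edgeR. For Cpt1a and Cpt1b they were -0.04 and 0.12 without control replicate 3.

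Markers of other cells of the depot were compared as well. None of 8 macrophage, 6 endothelial, 12 muscle, 8 tested liver and 3 tested B and T cell markers was called by edgeR, whereas 12 of 12 muscle markers, 2 liver markers and 2 endothelial markers had an unadjusted p-value below 0.05 and DESeq2 called 5 muscle markers. Over all tested genes these shares were 15.2% and 4.86%. Summed macrophage markers were 152 to 204 CPM in controls and 128 to 167 CPM in Stat5Adipoq BAT, and summed endothelial markers were 739 to 857 CPM and 758 to 929 CPM, so both overlapped. Their part in the carrier differences was not tested.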

How the data were processed

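BAT of 5 control and 5 Stat5Adipoq mice was profiled by stranded mRNA sequencing, with 1 library per mouse, and genotype and replicate number were taken from the sample titles. The authors aligned 50-base single reads to GRCm38/mm10 with STAR 2.5.0b, counted them over exons with featureCounts 1.5.0-p1 and deposited raw counts for each gene, without scaling. Whether counting used the strand is not given in the sources used here. Their comparison table holds DESeq2 fold changes and p-values, of which only symbols and identifiers were used. The members and lists were chosen with earlier results of these data known.

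Genes with a size factor normalized row sum above 45 were kept, which gave 13568 genes. Genotypes were compared with edgeR 4.0.16 (quasi-likelihood F test, TMM, no covariate, Benjamini-Hochberg adjustment over all these genes, threshold 0.05). The SE of a log2 fold change is its size divided by the root of F. For single members, an exact permutation test (two-sided, on log2 CPM) was added. Exon lengths and shared 50-base words came from GENCODE annotation of GRCm38, and gene positions and promoters from RefSeq (GRCm38.p6). The fit was tested on simulated data. The depth of 8488129 to 19514904 counts per library leaves members with few counts imprecise, and p-values measure the spread between mice. No 2 libraries of a genotype differed by sampling noise alone.

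Alternatives were DESeq2 1.42.0, limma-voom 3.58.1, DESeq2 size factors, library size alone, no filter, filterByExpr, a block for the replicate number, a muscle score (mean log2 CPM of 12 muscle markers) as a covariate, the longest transcript as length, and leaving out each library. Named by rule with values in every library were called members, members called by DESeq2 alone or without overlap, the 6 highest members, Slc25a20, Slc25a44 and the family members with other names, while Stat5a and Stat5b are given as ranges. The values of some members are not reported here, and counts over the family include them. Substrate classes were set by hand from known substrates.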

Additional observations from a re-analysis of the deposited data

Results flagged for a closer look

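In 98 groups of 5 libraries, each a member or related gene in 1 genotype, 7 held a library whose gap to the nearest other library exceeded Dixon's 95% critical value, where chance gives about 1 in 20 groups, or 4.9 groups. Of these libraries 5 were control replicate 3, which also had the most skeletal muscle and liver RNA. In that library Slc25a4 was 543 CPM (402 to 418 CPM in the other controls), Slc25a39 577 CPM (448 to 485 CPM) and Slc25a32 50.4 CPM (38.3 to 41.7 CPM). Slc25a12 was 17.3 CPM (3.83 to 5.35 CPM), and Slc25a31 was 2.16 CPM, from 18 counts (at most 0.152 CPM). The part of muscle RNA in these values was not tested. Slc25a47 was 1.72 CPM in control replicate 1, from 18 counts, against 2.74 to 2.93 CPM in the other controls. Stat5a was 20.7 CPM in Stat5Adipoq replicate 1, against 15.8 to 16.6 CPM in the other Stat5Adipoq libraries, below every control.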

How the results depend on the processing

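Slc25a10, Slc25a1, Slc25a5 and Slc25a42 were called by edgeR, DESeq2 and limma-voom, under each of the 3 scalings and each of the 3 filters, and 4 members were called with the replicate block. The replicate numbers showed no sign of pairing the mice (correlations of deviations -0.232 to 0.088, and 2 of 10 libraries correlated best with their own number). Such correlations cannot exclude a pairing. The replicate block gave 273 called genes in place of 368. DESeq2 called 660 genes and 1 gene each among the members without a settled substrate, the other transport genes and the TIM22 genes. With the muscle score as a covariate, 238 genes and 2 members (Slc25a10 and Slc25a42) were called, 0 carriers of ATP, ADP and phosphate, 1 carrier of dicarboxylates and tricarboxylates and 0 family members with other names, and Ucp2 turned to a log2 fold change of 0.02. Leaving out each library gave 185 to 442 called genes, 2 to 5 called members and 4 to 7 members without overlap. Groups without overlap stay so when a library is left out, so this last count could not fall below 4. It was not made over all tested genes for these smaller sets. In the fits with 1 library less, 1 to 2 carriers of dicarboxylates and tricarboxylates were called, and 0 to 1 genes each among carriers of nucleotides and cofactors, members without a settled substrate, family members with other names, other transport genes and TIM22 genes. The log2 fold change ranged from -0.02 to 0.08 for Slc25a39, which was -0.0048 under library size alone, from -0.01 to 0.07 for Slc25a44 and from -0.07 to 0.02 for Ucp2. With the longest transcript as length, Slc25a3 was at 237 CPM per kilobase. The causes of these differences between settings were not tested.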

Other observations

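Slc25a51, the carrier of NAD, followed the order of Ucp1 across the libraries of both genotypes, with control replicates ordered 3, 4, 1, 2, 5 and Stat5Adipoq replicates 5, 4, 3, 1, 2 from high to low. The same order in both genotypes was found for 15 of the 13567 tested genes other than Ucp1 (0.111%), Slc25a51 among them. In controls alone, Slc25a15, Slc25a17, Slc25a34 and Slc25a51, 9.52% of the members, had the order of Ucp1, as did 3.07% of these 13567 genes. In Stat5Adipoq BAT alone Slc25a51 and Slc25a53 had it, 4.76% against 0.973%. Slc25a53 had a mean of 21.1 counts per library and was 1.26, 1.22 and 1.29 CPM in Stat5Adipoq replicates 1 to 3. The order of these replicates for Slc25a53 is not resolved at this depth. Nor is that of Stat5Adipoq replicates 1 and 2 for Slc25a51, at 570.6 and 568.8 CPM. These genes were picked after their values were seen, and the libraries share their depth and their content of other tissue, so the orders are descriptions only.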
